A study of Homo sapiens with 90 samples.

Results

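CCN2 and 9 other genes that are widely used as readouts of the YAP/TEAD transcription complex (CCN1, ANKRD1, AMOTL2, LATS2, AXL, F3, CRIM1, FJX1 and MYOF) were followed in HepG2 cells, a human hepatocellular carcinoma line, exposed to imazalil, fenbuconazole or 2,4-D. The 10 genes are 10 of the 19774 genes named on the array, and they are read by 19 of its 54613 non-control probe sets. A probe set is a group of short probes that report one transcript together. CCN2 was selected on its measured level in these same arrays, which was low at 10 µM imazalil against DMSO, and the other genes were taken as known targets of the same complex. All values of that contrast are therefore given as a description, without a test.

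The cells were exposed for 24 h, starting 24 h after 18000 cells were seeded per well of 96-well plates in medium with 10% FBS. The treated groups received imazalil (an imidazole fungicide), fenbuconazole (a triazole fungicide) or 2,4-D (a chlorophenoxy herbicide) at 1 of 9 concentrations between 0.001 and 10 µM, and 3 arrays were run for each concentration of each compound. The vehicle group received 0.2% DMSO, which every treated group also contained, and its 3 arrays served all 3 compounds. Each set of 30 columns (27 treated, 3 DMSO) was normalized by itself, so treated arrays were set only against the DMSO columns of their own set.

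YAP and TAZ (gene WWTR1) are transcriptional coactivators that bind TEAD factors on DNA. The Hippo kinases STK3 and STK4 act through the kinases LATS1 and LATS2, which phosphorylate YAP and TAZ and keep them in the cytoplasm. Mechanical tension, loss of cell contact and a range of ligands release them, and in liver cells they are known for their part in organ size, regeneration and fibrosis. CCN2, CCN1 and ANKRD1 are the targets most often measured, and LATS2 and AMOTL2 are targets that in turn restrain YAP.

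TEAD factors recognise the motif GGAATG, which reads as CATTCC on the opposite strand. The 250 bases upstream of the annotated start were searched on both strands for this motif in the RefSeq promoters of GRCh38.p14, where 8 of the 10 genes had an entry. The motif occurred at 3 places upstream of CCN2, at 2 upstream of ANKRD1, and at 1 upstream of one of the annotated starts of each of AMOTL2 and AXL, whereas the LATS2, F3, FJX1 and MYOF windows held none. Of all 35116 promoters, 11.9% held at least 1 match and 0.0826% held 3 or more, and a match is only an occurrence of the letters. The upstream windows of CCN2 (chr6:131951373-131951622, minus strand) and ANKRD1 (chr10:90921088-90921337, minus strand) are shown 5′ to 3′ on the gene's strand because they hold the most matches, with each GGAATG in capitals. The CCN2 matches begin 169, 104 and 95 bases before the start, and the ANKRD1 matches 220 and 128 bases before it.
CCN2: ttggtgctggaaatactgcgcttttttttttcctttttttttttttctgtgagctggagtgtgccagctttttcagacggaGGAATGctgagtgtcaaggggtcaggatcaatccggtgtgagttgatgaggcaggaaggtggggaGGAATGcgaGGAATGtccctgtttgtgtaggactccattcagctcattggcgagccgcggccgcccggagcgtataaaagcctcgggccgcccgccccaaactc
ANKRD1: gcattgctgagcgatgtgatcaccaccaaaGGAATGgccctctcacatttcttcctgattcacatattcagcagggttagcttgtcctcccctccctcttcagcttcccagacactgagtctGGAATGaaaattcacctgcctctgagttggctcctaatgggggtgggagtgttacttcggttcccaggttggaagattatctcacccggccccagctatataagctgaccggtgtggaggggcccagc

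The label of a liver-derived line was checked on marker genes. All 7 hepatocyte markers (ALB, AFP, APOA1, TTR, SERPINA1, TF and FGB) were above the array median on all 90 columns, and none of the 5 blood and endothelial markers was, although PECAM1 exceeded it on 89 columns. Of the 6 mesenchymal markers, COL1A1 and ACTA2 were above the median on all columns, PDGFRB on 89 and VIM on none, and the mean log2 level of the 6 lay between 3.81 and 3.97 on the 10 µM imazalil arrays, against 3.85 to 4.02 on the DMSO arrays. The median log2 signal per array was 2.95 to 3.07 in the imazalil set, 2.97 to 3.05 in the fenbuconazole set and 3.06 to 3.15 in the 2,4-D set. The 3′ minus 5′ signal of the GAPDH control probe sets, a measure of RNA integrity, was −0.14 to −0.08 on the 10 µM imazalil arrays, against −0.13 to −0.07 on the DMSO arrays.

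Each gene was read first by its lead probe set, the one with the highest mean over all columns. The lead probe sets of 9 of the 10 genes were above the array median on all 90 columns, as were 13 of the 19 probe sets. The exception was MYOF, a ferlin of membrane repair, whose lead probe set exceeded the array median on 5 of 90 columns and whose other probe sets did so on 5 and 3 columns. The transcription factors and cofactors themselves were well above background. YAP1 had a median log2 level of 9.62 (range 9.28 to 9.96 over all columns), WWTR1 of 9.48 (9.06 to 9.71), TEAD1 of 8.10 (7.86 to 8.29) and TEAD4 of 8.28 (7.99 to 8.54), each a level of its own probe set and not comparable between genes.

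CCN2, a secreted matricellular protein also known as connective tissue growth factor, was read by a single probe set (209101_PM_at; gene on chromosome 6). At 10 µM imazalil its log2 intensity was 9.75, 9.90 and 9.79 on the 3 arrays, against 10.26, 10.22 and 10.16 on the DMSO arrays. All 3 imazalil arrays lay below all 3 DMSO arrays, and the distance between the group means exceeded the range within either group. The mean difference was −0.40 ± 0.08 (log2 ± SE), a fold of 0.756. Because CCN2 was chosen on this contrast, the SE does not allow for that choice. In bulk RNA, fewer expressing cells and less CCN2 RNA per cell cannot be told apart.

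**Figure D1:**
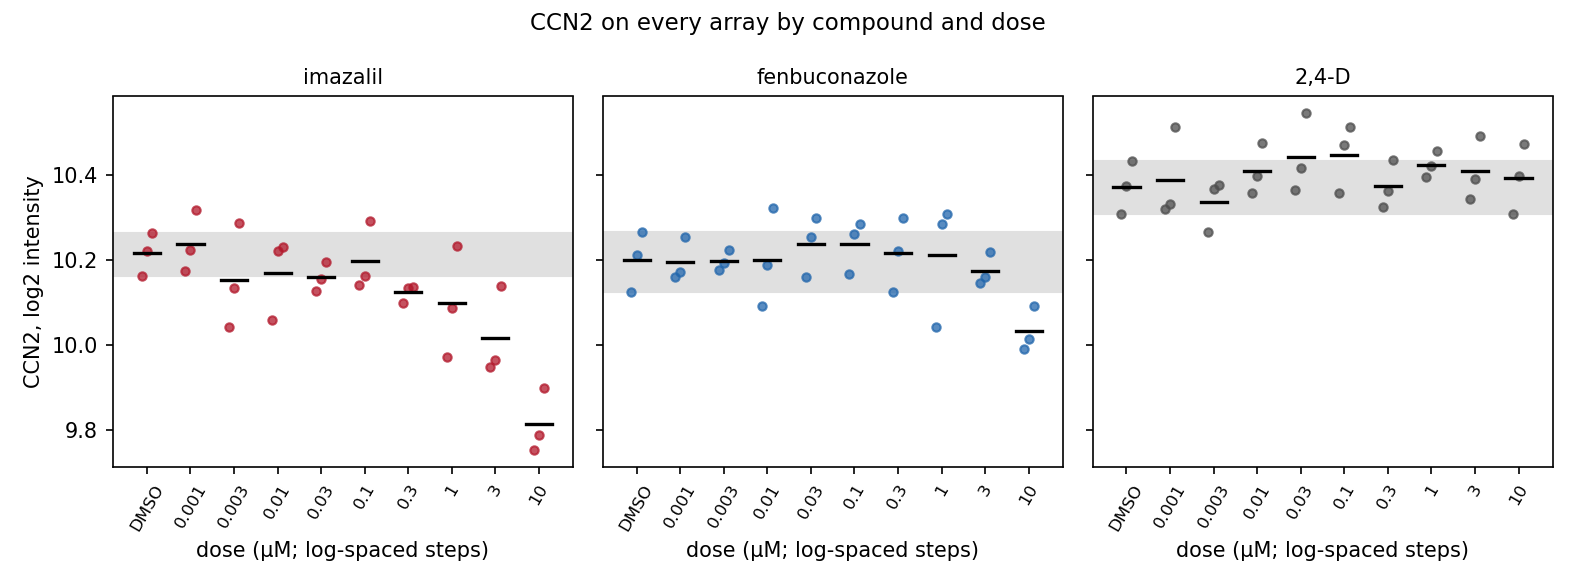
CCN2 log2 intensity (vertical axis) on every array against dose (horizontal axis, DMSO at the left, then 0.001 to 10 µM in steps evenly spaced on a log scale) for imazalil, fenbuconazole and 2,4-D; points are arrays, ordered by value within a dose, black bars are means of 3 arrays and the grey band is the DMSO range of that set. The 10 µM imazalil arrays (9.75 to 9.90) and the 10 µM fenbuconazole arrays (9.99 to 10.09) sit below their DMSO bands, and the 10 µM 2,4-D arrays (10.31 to 10.47) do not.

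The lower imazalil doses were tested. Their treated arrays were not used to choose the gene, but they were set against the same 3 DMSO arrays that were. These tests are therefore not independent of the choice. At 3 µM imazalil CCN2 was at 9.96, 10.14 and 9.95, against the same 10.26, 10.22 and 10.16 in DMSO. The 3 values lay below all DMSO values, but the difference of −0.20 ± 0.08 did not pass the test across all probe sets (limma, adjusted p = 1.0), and 3 of the 19 member probe sets (also CCN1 210764_PM_s_at and the dim MYOF 217518_PM_at) and 3.9% of all probe sets lay below DMSO without overlap at this dose. At 1 µM the mean was 10.10 ± 0.13 (SD, n = 3) and at 0.3 µM it was 10.12 ± 0.02, against 10.22 ± 0.05 in DMSO. The 1 µM arrays overlapped DMSO and the 0.3 µM arrays lay just below it. From 0.001 to 0.1 µM the means ran from 10.15 to 10.24.

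Ordered by level, the imazalil groups ran from 0.001 µM (10.24) and DMSO (10.22) at the top to 1 µM (10.10), 3 µM (10.02) and 10 µM (9.81) at the bottom. The only step between neighbours in this order that exceeded the larger of their SDs was the one between 3 and 10 µM (0.20). Among the 24 arrays from 0.001 to 3 µM, which share no array with the 10 µM or DMSO groups, the CCN2 slope was −0.05 ± 0.02 per 10-fold dose (limma, adjusted p = 0.80). That slope did not pass the threshold, ranked 3344 from the lowest of 54613, and 2.81% of all probe sets had a downward slope at an unadjusted p under 0.05. Over 0.001 to 10 µM, which takes in the dose that chose the gene, the slope was −0.08 ± 0.02 and ranked 149 from the lowest. Within a compound and replicate the code number in the labels falls as dose rises, so order in the coded series and dose cannot be told apart.

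With fenbuconazole the CCN2 arrays lay apart from DMSO at the top dose only. CCN2 was 9.99, 10.09 and 10.01 at 10 µM, against 10.27, 10.21 and 10.12 in DMSO, so that the groups did not overlap. The difference was −0.17 ± 0.08, a fold of 0.890 (95% interval 0.793 to 0.998), and it did not pass (limma, adjusted p = 0.999). The DMSO columns come from the same 3 arrays that were used to choose CCN2. The lack of overlap, the interval and the test are therefore not independent of that choice. At 3 µM the difference was −0.03 ± 0.08, and at the 7 lower doses it lay between −0.01 and 0.04. The step between 3 and 10 µM was again the only one in the order of levels that exceeded the SDs of its neighbours.

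With 2,4-D the CCN2 arrays overlapped those of DMSO at every dose. It was 10.40, 10.47 and 10.31 at 10 µM, against 10.43, 10.37 and 10.31 in DMSO, and the groups overlapped. The difference was 0.02 ± 0.07 (adjusted p = 1.0) with a 95% interval of the fold from 0.913 to 1.13. No step between neighbours in the order of 2,4-D levels exceeded their SDs. The 2,4-D comparison also rests on the DMSO arrays that were used to choose CCN2.

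The compounds were compared at matched doses on values centred on the DMSO mean of each set. These comparisons rest on the same 3 DMSO arrays, and their errors hold the spread of treated arrays only. For CCN2 the imazalil minus 2,4-D difference was −0.17 ± 0.08 at 1 µM (adjusted p = 0.788) and −0.24 ± 0.08 at 3 µM (adjusted p = 0.796), with a 95% interval at 3 µM of −0.39 to −0.08. The imazalil minus fenbuconazole difference was −0.13 ± 0.08 at 1 µM and −0.17 ± 0.08 at 3 µM (adjusted p = 0.943), with a 95% interval at 3 µM of −0.33 to −0.01. At 10 µM fenbuconazole minus 2,4-D was −0.19 ± 0.07 (adjusted p = 0.664; 95% interval −0.34 to −0.04).

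None of these CCN2 differences passed the threshold across all probe sets. At 10 µM, as a description, imazalil minus 2,4-D was −0.42 ± 0.08 and imazalil minus fenbuconazole −0.23 ± 0.08. Over the 3 pairs and the 7 contrasts tested, 0 member values were called and 17 values, from 19 probe sets in each contrast, had an unadjusted p under 0.05, 4 of them CCN2, where 0.00523% and 5.47% of all values did.

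CCN1, the matricellular relative of CCN2 formerly called CYR61 (gene on chromosome 1), was read by probe sets 201289_PM_at and 210764_PM_s_at. The lead probe set gave 7.10, 7.09 and 7.19 at 10 µM imazalil, against 7.39, 7.41 and 7.62 in DMSO. The second gave 5.74, 5.86 and 6.02 at 10 µM imazalil, against 6.14, 6.18 and 6.49 in DMSO. Both probe sets placed all 3 imazalil arrays below all DMSO arrays, with mean differences of −0.35 ± 0.15 and −0.40 ± 0.19.

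Below 10 µM imazalil the lead probe set of CCN1 lay without overlap from DMSO at 0.001 µM only. It probe set was −0.29 ± 0.15 at 0.001 µM, 0.02 at 0.3 µM and −0.12 at 3 µM imazalil, and its slope over 0.001 to 3 µM was 0.04 ± 0.03 (adjusted p = 0.908). With 10 µM fenbuconazole it was 7.36, 7.20 and 7.40, against 7.39, 7.41 and 7.62 in DMSO, a difference of −0.15 ± 0.11 with overlapping groups. With 10 µM 2,4-D the lead was 7.45, 7.49 and 7.91, against 7.55, 7.56 and 7.77 in DMSO. That difference of −0.01 ± 0.12 was smaller than the spread of either group. The second probe set, 210764_PM_s_at, was −0.21 from DMSO at 10 µM 2,4-D, with overlap. On that probe set imazalil minus 2,4-D at 10 µM was −0.19 ± 0.18 and imazalil minus fenbuconazole −0.21 ± 0.18, as a description.

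ANKRD1, a muscle-type ankyrin repeat protein that acts as a nuclear cofactor (gene on chromosome 10), had a wide spread between arrays. Its probe set gave 5.48, 5.55 and 5.77 at 10 µM imazalil, against 5.88, 5.71 and 6.0 in DMSO, with overlap and a mean difference of −0.27 ± 0.19. Its mean was below DMSO at all 9 imazalil doses, from −0.05 at 1 µM to −0.48 ± 0.19 at 0.003 µM, and none of the 8 lower doses passed (lowest adjusted p = 0.841). It was also below DMSO at 8 of 9 fenbuconazole doses and 7 of 9 2,4-D doses. All these differences rest on the same 3 DMSO arrays, so they are not separate observations and are not particular to imazalil.

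The slope of ANKRD1 over 0.001 to 3 µM imazalil was positive, opposite in sign to that of CCN2. It was 0.09 ± 0.04 with imazalil (adjusted p = 0.823), 0.10 ± 0.03 with 2,4-D (adjusted p = 0.756) and −0.001 ± 0.04 with fenbuconazole. None passed, so neither a rise nor a fall of ANKRD1 with dose was detectable.

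LATS2, the kinase that phosphorylates YAP and is itself a YAP target (gene on chromosome 13), was read by 4 probe sets, of which 227013_PM_at and 223380_PM_s_at were above the array median on all columns. The lead, 227013_PM_at, gave 8.42, 8.45 and 8.39 at 10 µM imazalil, against 8.53, 8.70 and 8.63 in DMSO. The second, 223380_PM_s_at, gave 7.38, 7.14 and 7.32 at 10 µM imazalil, against 7.76, 7.46 and 7.69 in DMSO. Neither overlapped, with differences of −0.20 ± 0.08 and −0.35 ± 0.11.

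These probe sets differed below 10 µM. The lead lay within 0.05 of DMSO at every dose from 0.001 to 3 µM imazalil, whereas 223380_PM_s_at was at −0.34 ± 0.11 at 0.001 µM (adjusted p = 1.0), −0.05 at 0.3 µM and −0.30 ± 0.11 at 3 µM. Its slope over that range was 0.004 ± 0.03, so its low values were not graded with dose. With fenbuconazole 223380_PM_s_at had a positive slope of 0.07 ± 0.02 over 0.001 to 3 µM (adjusted p = 0.568) and was −0.14 ± 0.12 from DMSO at 10 µM. The dim probe set 223379_PM_s_at had a slope of −0.10 ± 0.03 over 0.001 to 10 µM 2,4-D (adjusted p = 0.996), the lowest unadjusted p of all member slopes, at a level near the array median.

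AMOTL2, an angiomotin-family scaffold that holds YAP at cell junctions (chromosome 3), gave 6.92, 6.86 and 7.10 at 10 µM imazalil, against 7.12, 6.82 and 7.10 in DMSO. The groups overlapped, and its differences from DMSO ran from −0.09 to 0.04 over the imazalil doses, from −0.24 to 0.07 over fenbuconazole and from −0.11 to 0.09 over 2,4-D.

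CRIM1, a transmembrane protein that binds bone morphogenetic proteins (chromosome 2), had 3 bright probe sets that gave different sizes. Its lead, 228496_PM_s_at, was 8.43, 8.22 and 8.55 at 10 µM imazalil, against 8.63, 8.35 and 8.42 in DMSO, a difference of −0.07 ± 0.14 with overlap. The probe set 202551_PM_s_at was 8.0, 7.71 and 8.0 at 10 µM imazalil, against 8.15, 8.03 and 8.10 in DMSO, a difference of −0.19 ± 0.09 without overlap. The third, 202552_PM_s_at, was at −0.07 ± 0.11.

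At 10 µM fenbuconazole the 3 probe sets of CRIM1 differed in size and none passed. The probe set 202551_PM_s_at was 8.05, 7.82 and 7.96, against 8.16, 8.07 and 8.13 in DMSO, without overlap (difference −0.18 ± 0.09, adjusted p = 0.999). The lead was at −0.25 ± 0.15 and 202552_PM_s_at at −0.06 ± 0.15, both with overlap. The slope of 202551_PM_s_at over 0.001 to 3 µM imazalil was −0.04 ± 0.02 (adjusted p = 0.823), and with CCN2 it was the only member probe set with a downward imazalil slope at an unadjusted p under 0.05.

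AXL, a receptor tyrosine kinase (chromosome 19), was read by 202686_PM_s_at and the dimmer 202685_PM_s_at. The lead was 4.01, 3.93 and 4.41 at 10 µM imazalil, against 4.01, 3.98 and 4.02 in DMSO, where 1 of the 3 treated arrays was high and the groups overlapped. Its slope over 0.001 to 3 µM was −0.07 ± 0.03 with fenbuconazole (adjusted p = 0.583) and 0.04 ± 0.04 with imazalil. At 1 µM the imazalil minus fenbuconazole difference was 0.45 ± 0.16 (adjusted p = 0.833), and at 3 µM it was 0.12 ± 0.16. The dimmer probe set, above the array median on 48 of 90 columns, differed from the lead in the size of its slopes. Over 0.001 to 3 µM they were −0.03 ± 0.03 with fenbuconazole and 0.09 ± 0.04 with imazalil (limma, adjusted p = 0.809 and 0.815).

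The remaining members were close to DMSO or near background. F3, tissue factor, the initiator of coagulation (chromosome 1), gave 4.72, 5.00 and 4.60 at 10 µM imazalil, against 4.78, 4.52 and 4.89 in DMSO, with overlap. At 10 µM 2,4-D it was 4.94, 4.96 and 4.78, against 5.15, 4.91 and 5.21 in DMSO (difference −0.19 ± 0.11, adjusted p = 1.0). FJX1, the human relative of a Drosophila Golgi kinase (chromosome 11), gave 3.54, 3.52 and 3.57 at 10 µM imazalil, against 3.57, 3.77 and 3.52 in DMSO.

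FJX1 overlapped DMSO and lay not far above the array median. MYOF (chromosome 10) gave 2.78, 3.12 and 2.98 at 10 µM imazalil on its lead probe set, against 2.70, 2.62 and 2.65 in DMSO, a difference of 0.30 ± 0.13 without overlap. Its levels are those of undetected probe sets, so this difference is not a measured change of MYOF.

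**Figure D2:**
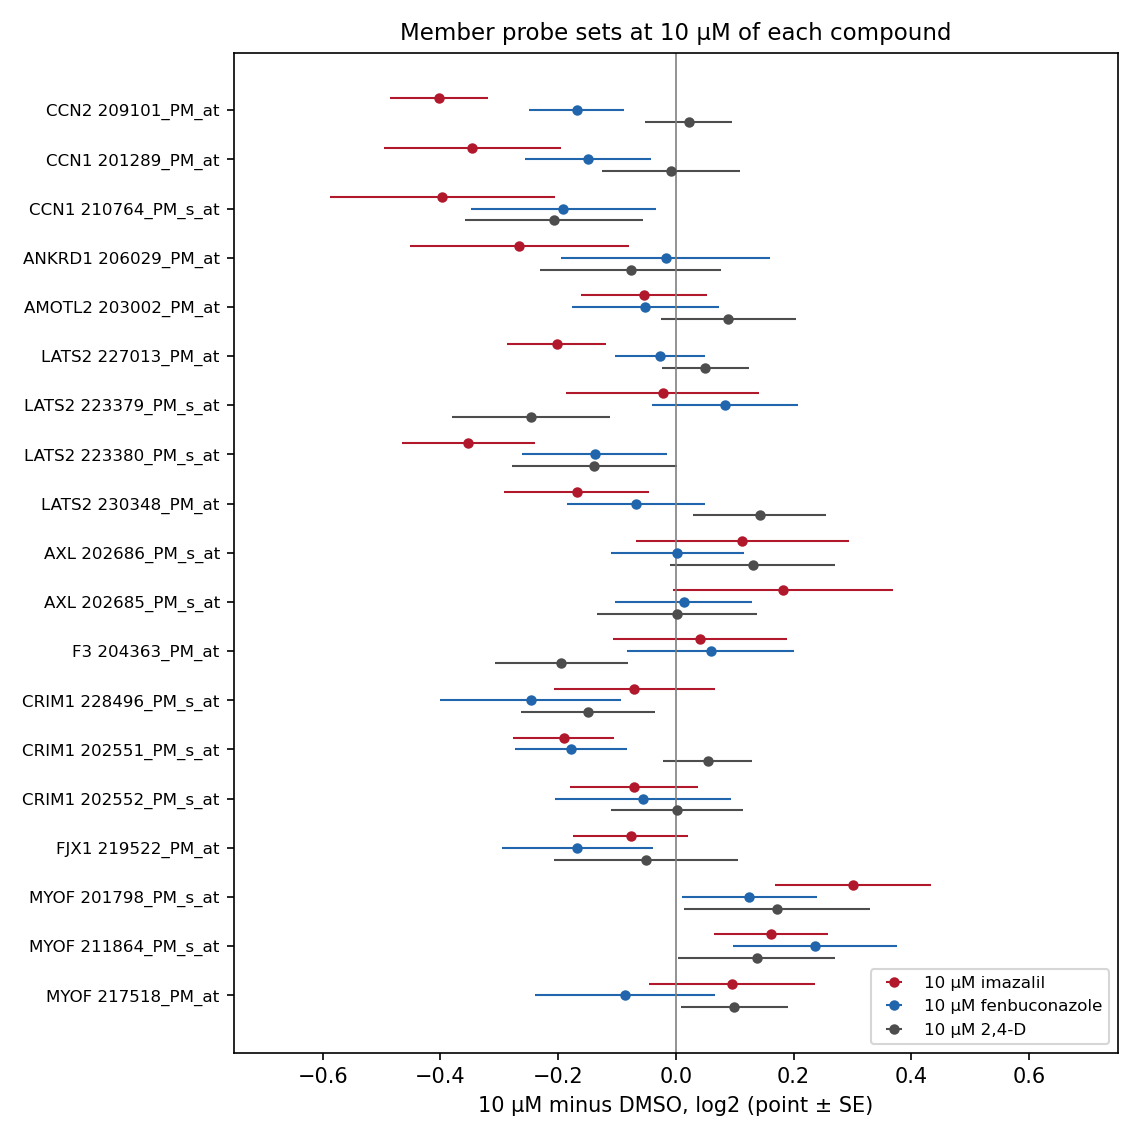
Difference between 10 µM and DMSO (horizontal axis, log2, point ± SE, n = 3 arrays per group) for each of the 19 member probe sets, with imazalil, fenbuconazole and 2,4-D from top to bottom within a row. CCN2 (−0.40), both CCN1 probe sets (−0.35 and −0.40) and LATS2 223380_PM_s_at (−0.35) lie farthest to the left with imazalil, and MYOF 201798_PM_s_at (0.30) farthest to the right.

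Across the members at 10 µM imazalil, 6 probe sets lay below DMSO and 2 above it without overlap, where 6.18% and 5.49% of all probe sets did. The 6 were the single CCN2 probe set, both of CCN1, 227013_PM_at and 223380_PM_s_at of LATS2 and 202551_PM_s_at of CRIM1, and the 2 were MYOF probe sets. The mean difference was below 0 for 13 of 19 probe sets with a median of −0.07, against 51.6% and a median of −0.01 over all probe sets. On lead probe sets it was below 0 for 7 of 10 genes. These counts include the contrast that chose CCN2, and nothing is read from them about the list.

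At 10 µM fenbuconazole 2 member probe sets lay below DMSO (CCN2 and CRIM1 202551_PM_s_at) and 1 above it without overlap (MYOF 211864_PM_s_at), where 4.24% and 4.7% of all probe sets did. At 10 µM 2,4-D 1 lay below (LATS2 223379_PM_s_at) and 3 above (all MYOF), where 3.53% and 3.71% did. The median over the 19 probe sets was −0.06 with fenbuconazole and 0.00 with 2,4-D, against 0.00 over all probe sets in both.

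In the tests against DMSO, 0 of the 19 probe sets were called at any dose of fenbuconazole or 2,4-D or at any imazalil dose up to 3 µM (limma, Benjamini-Hochberg over all probe sets). Over all probe sets 0.00549%, 0% and 0.00183% were called at any of those doses. At an unadjusted p under 0.05 there were 7 of 171 member values with fenbuconazole, 4 of 171 with 2,4-D and 9 of 152 with imazalil, where 3.29%, 4.36% and 3.75% of all values were.

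The tests over doses also called none of the members. The F tests called 0 of 57 member values and 3 had an unadjusted p under 0.05, where 0.00244% and 4.08% of all values did. For the slopes over 0.001 to 3 µM, 0 of 19 were called with each compound, where 0.00183% (imazalil), 0% (fenbuconazole) and 0% (2,4-D) of all probe sets were, and 4, 2 and 2 had an unadjusted p under 0.05, where 6.03%, 7.57% and 5.95% did. For the slopes over 0.001 to 10 µM of fenbuconazole and 2,4-D, 0 of 38 were called and 2 had an unadjusted p under 0.05, where 0.00549% and 5.42% did. The 3 arrays per group limit the precision, and because no label says that replicates came from separate cultures, the p-values measure the spread between samples that may be technical.

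**Figure D3:**
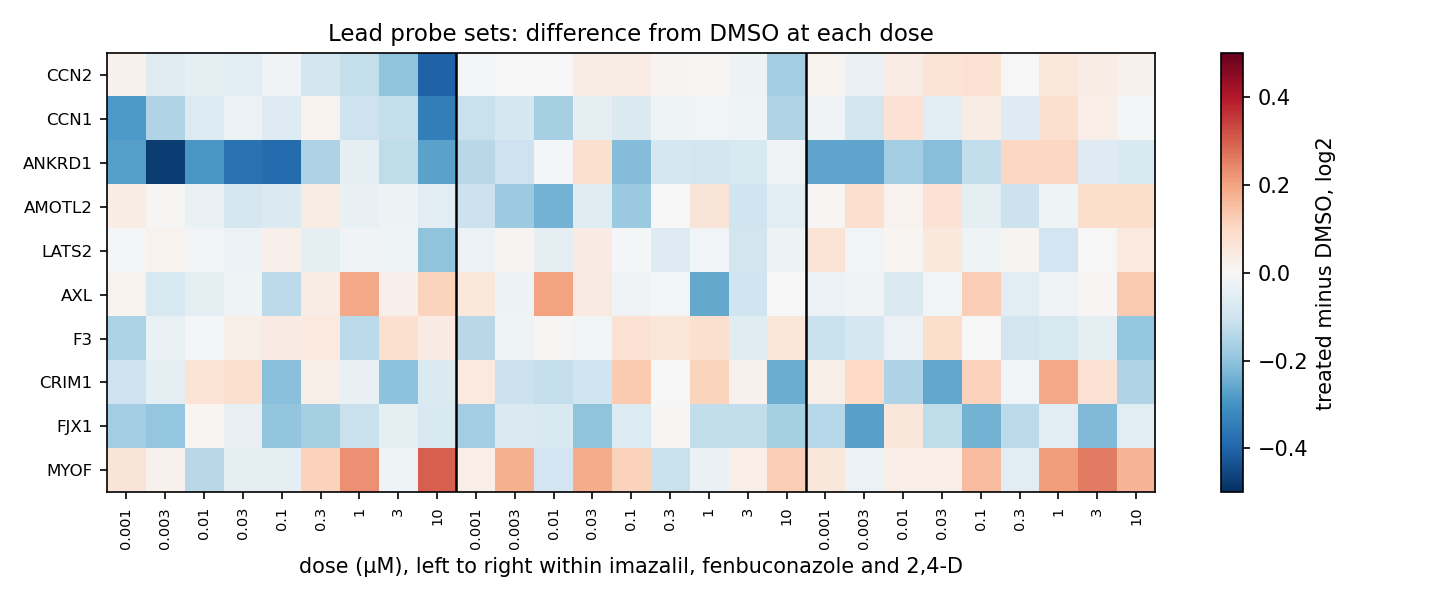
Mean difference from DMSO (colour, log2, blue below and red above 0) of the lead probe set of each gene (rows) at the 9 doses of each compound (columns, low to high within imazalil, fenbuconazole and 2,4-D). CCN2 reaches −0.40 at the last imazalil dose, and no value at the tested doses was called. ANKRD1 is below DMSO at 9 of 9 imazalil, 8 of 9 fenbuconazole and 7 of 9 2,4-D doses, all set against the same DMSO arrays.

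The other genes of the pathway were read from lists of known targets and components, each by its lead probe set. With fenbuconazole and 2,4-D at 10 µM none of the listed genes was called in either direction. Over all probe sets 0.00549% (fenbuconazole) and 0% (2,4-D) were called at this dose, so nothing is read from that about the lists. Of 12 other YAP/TEAD targets 11 were measured and 6 of those were above the array median on all columns. At 10 µM imazalil 6 of the 11 were below DMSO (median −0.02), with PTPN14, a phosphatase that binds YAP, lowest (−0.19 ± 0.11) and DOCK5, an exchange factor for RAC, highest (0.18 ± 0.13). At 10 µM fenbuconazole the extremes were IGFBP3 (−0.13 ± 0.14) and FOXF2 (0.12 ± 0.12), and at 10 µM 2,4-D they were DOCK5 (−0.17 ± 0.12) and ARHGEF17 (0.22 ± 0.14). IGFBP3 and FOXF2 were near background, above the array median on 60 and 0 of 90 columns.

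Of 13 Hippo kinases and adaptors, 11 were above the array median on all columns, and AMOT (0 of 90) and AMOTL1 (11 of 90) were not. At 10 µM imazalil 7 of the 13 were below DMSO (median −0.01), with the kinase MAP4K4 lowest (−0.20 ± 0.07) and the kinase LATS1 highest (0.51 ± 0.18). At 10 µM fenbuconazole they ran from MOB1B (−0.12 ± 0.21) to TAOK3 (0.09 ± 0.13) and at 10 µM 2,4-D from NF2 (−0.07 ± 0.08) to LATS1 (0.12 ± 0.16). Of the 7 effectors and cofactors, all above the array median on all columns, 4 were below DMSO at 10 µM imazalil (median −0.02), from VGLL4 (−0.08 ± 0.08) to TEAD3 (0.30 ± 0.17). They ran from VGLL4 (−0.06 ± 0.08) to TEAD4 (0.12 ± 0.09) at 10 µM fenbuconazole and from TEAD4 (−0.02 ± 0.08) to TEAD2 (0.18 ± 0.10) at 10 µM 2,4-D.

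The 4 other CCN genes were near background: CCN3, CCN4, CCN5 and CCN6 exceeded the array median on 10, 1, 1 and 17 of 90 columns. Their differences at 10 µM ran from CCN5 (−0.03 ± 0.10) to CCN6 (0.05 ± 0.18) with imazalil, from CCN6 (−0.20 ± 0.15) to CCN5 (0.10 ± 0.13) with fenbuconazole and from CCN3 (−0.08 ± 0.12) to CCN4 (0.07 ± 0.10) with 2,4-D. Among the CCN genes, CCN2 and CCN1 were the ones above the array median on all columns.

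The replicate number, which is independent of dose because each number occurs once in every group, was tested as a variable of its own, and 1 member probe set was called, in the imazalil set. ANKRD1 in the imazalil set averaged 5.85 ± 0.20 in replicate 3, 5.61 ± 0.15 in replicate 1 and 5.42 ± 0.22 in replicate 2 (SD, n = 10 each), and the replicate number was called (limma F test, adjusted p = 0.031), though not without replicate 2 or without replicate 3. It was the only one of 19 probe sets called there, where 0.00916% of all probe sets were. ANKRD1 was also highest in replicate 3 in the 2,4-D set (6.15 ± 0.24, against 5.92 ± 0.13 and 5.90 ± 0.18, adjusted p = 0.097) and in the fenbuconazole set (5.85 ± 0.23, against 5.63 ± 0.17 and 5.58 ± 0.13, adjusted p = 0.350). In those sets 0 of 19 members were called, where 0.606% (2,4-D) and 0.00549% (fenbuconazole) of all probe sets were.

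CCN1 had the same order of replicate 3 over the others in each set without passing. It averaged 7.53 ± 0.19 in replicate 3, 7.33 ± 0.16 in replicate 1 and 7.21 ± 0.09 in replicate 2 of the imazalil set (adjusted p = 0.116). CCN2 went the other way, with its lowest mean in replicate 3 of each set, 10.07 ± 0.13, 10.15 ± 0.09 and 10.36 ± 0.05 in the imazalil, fenbuconazole and 2,4-D sets, and did not pass (adjusted p from 0.564 to 0.662). The sets share their DMSO arrays, 3 of 30 columns each. The number coincides with a plate code whose meaning is not given.

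**Figure D4:**
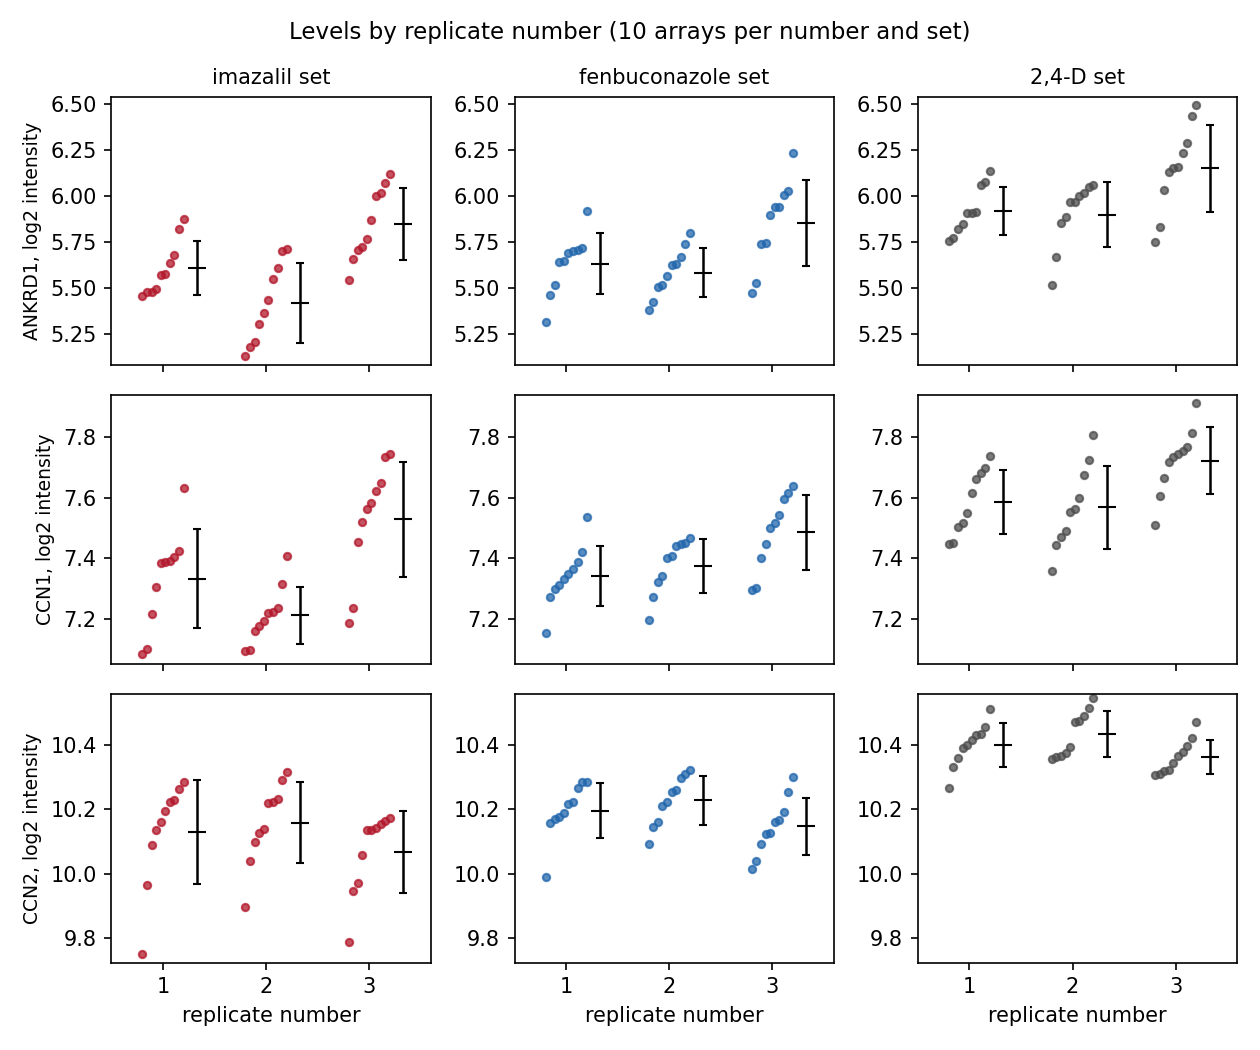
Log2 intensity (vertical axis) of ANKRD1, CCN1 (lead probe sets) and CCN2 by replicate number (horizontal axis) in the imazalil, fenbuconazole and 2,4-D sets; points are the 10 arrays of a number, ordered by value, with their mean and SD in black beside them. ANKRD1 and CCN1 are highest in replicate 3 of each set (ANKRD1 5.85, 5.85 and 6.15), while CCN2 is lowest there (10.07, 10.15 and 10.36).

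How far the members varied together was described over the 81 treated arrays, as Pearson correlations of values centred on DMSO, without a test because arrays of a dose and of a replicate number are not independent. With CCN2 the lead probe sets correlated at r = 0.28 (CRIM1), 0.19 (LATS2), 0.16 (CCN1), 0.13 (AMOTL2), 0.02 (ANKRD1), −0.07 (F3), −0.07 (MYOF), −0.10 (FJX1) and −0.23 (AXL). Without the 3 arrays at 10 µM imazalil the r of the CCN1 lead was −0.06 and that of the LATS2 lead −0.12. The positive values of these lead probe sets therefore rested on those arrays. The other bright probe sets stayed positive: CCN1 210764_PM_s_at had 0.25 over 81 arrays and 0.10 over 78, and LATS2 223380_PM_s_at 0.32 and 0.23. CRIM1 kept 0.34 over the remaining 78 arrays, and its probe set 202551_PM_s_at had 0.48 over 81 arrays and 0.44 over 78.

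Some correlations among members changed once the replicate number was taken out. ANKRD1 and AXL, both with their highest mean in replicate 3 of each set, correlated at r = 0.52 over the 81 arrays, at 0.64 once the mean of each dose group was removed and at 0.41 once the mean of each replicate number within a set was removed as well. CCN1 and ANKRD1 gave 0.39, 0.44 and −0.10 in that order. CCN2 and ANKRD1 gave 0.02, −0.17 and 0.30, and CCN2 and CCN1 gave 0.16, −0.32 and −0.02. The lowest value among all pairs was between LATS2 and CRIM1 (−0.40, −0.50 and −0.48).

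Outside the members, the 5 genes whose pattern was most like that of CCN2 among 11787 genes above the array median in DMSO were DKK1 (r = 0.77), a secreted Wnt antagonist; FILIP1L (0.73), a filamin A interacting protein; SLC2A3 (0.70), a glucose transporter; TXNIP (0.67), a thioredoxin inhibitor; and TUBB1 (0.67), a beta tubulin. At 10 µM imazalil they were −0.51, −0.48, −0.45, −0.85 and −0.57 from DMSO in that order, and their r over the 78 other arrays, which are among the 81 used to pick them, was 0.59, 0.59, 0.53, 0.40 and 0.56. With the mean of each dose group removed it was 0.36, 0.42, 0.34, 0.09 and 0.49. By r over the 81 arrays CRIM1 ranked 585 of the 11787 genes, LATS2 ranked 1550, CCN1 ranked 2178 and AXL, the lowest of the members compared, ranked 10979.

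**Figure D5:**
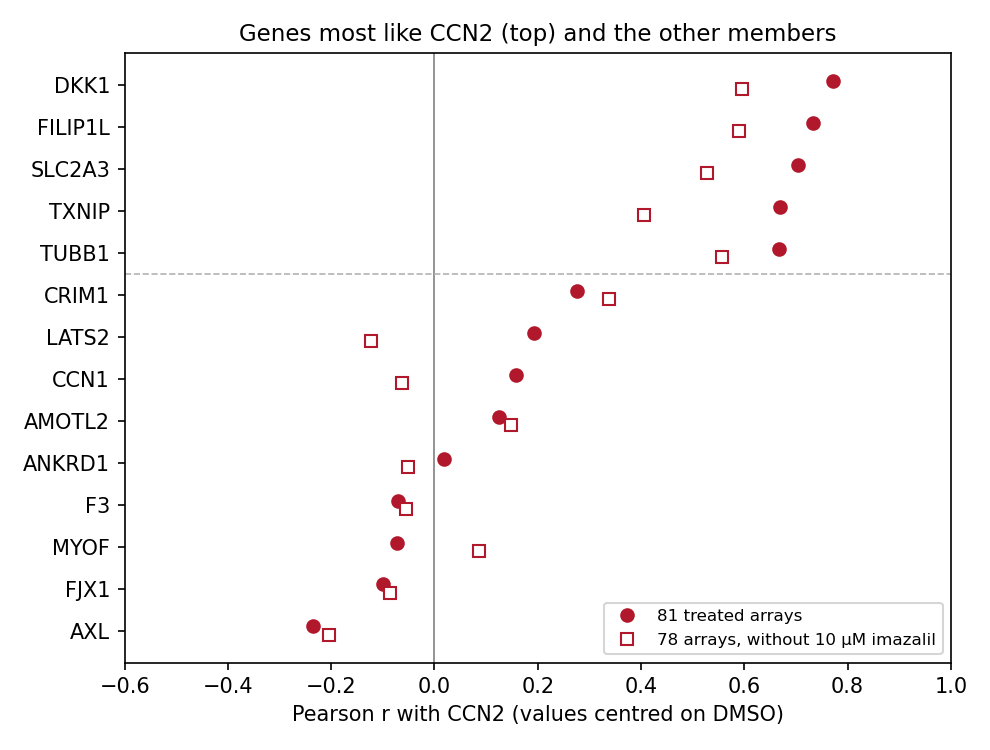
Pearson correlation with CCN2 (horizontal axis) over the 81 treated arrays (filled circles) and over the 78 without 10 µM imazalil (open squares) for the 5 genes most like CCN2 (above the dashed line) and for the lead probe sets of the other 9 members (below it). DKK1 (0.77 and 0.59) and the other 4 stay above 0.40, while CCN1 (0.16 and −0.06) and LATS2 (0.19 and −0.12) lie below 0 without the 10 µM imazalil arrays.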

How the data were processed

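HepG2 RNA was measured on 1-colour expression arrays, 81 treated and 3 DMSO arrays, in 3 sets of 30 columns. The authors deposited log2 values, and their processing notes name RMA and Partek with no version given in the sources used here. Columns of the same DMSO arrays differed slightly between sets, so each set was treated as normalized by itself, and RMA removes differences in overall signal between arrays of a set. Of 54715 probe sets, 102 controls were left out; 40914 had 1 gene symbol, 864 several and 12835 none, and only single-symbol probe sets were named.

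Each set was fitted with limma 3.58.1 (R 4.3.3) over all 10 groups (lmFit, eBayes), with Benjamini-Hochberg adjustment over 54613 probe sets within a contrast and a threshold of 0.05. Dose slopes used treated columns only. Compounds were compared on values minus the DMSO mean of the set. The members, the lists and the tests were chosen with earlier results of these data known. Genes were named where they were members, the lowest or highest of a list at 10 µM, or the 5 most correlated with CCN2. The methods were tested on simulated data. Alternatives were dim probe sets left out, 1 probe set per gene, other eBayes settings, joint quantile normalization, a spread covariate, a replicate block and arrays left out. CCN1 and CRIM1 promoters and NUAK2 were not analysed here.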

Additional observations from a re-analysis of the deposited data

Results flagged for a closer look

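On its lead probe set (227013_PM_at) LATS2, the kinase that restrains YAP, had means on opposite sides of DMSO with imazalil and 2,4-D. The other bright probe set did not, and the 2,4-D arrays of the lead overlapped those of DMSO. The mean difference of the lead from DMSO was −0.20 at 10 µM imazalil and 0.05 at 10 µM 2,4-D, so that imazalil minus 2,4-D was −0.25. Each treated array lay on its compound's side of the DMSO mean of its set. How many of all probe sets would do the same was not counted. On leaving out arrays the 2,4-D value of the lead ran from −0.0069 to 0.099. The probe set 223380_PM_s_at was below DMSO with both compounds, at −0.35 (10 µM imazalil) and −0.14 (10 µM 2,4-D). The difference was not tested, because the imazalil contrast was used to choose CCN2, and both compounds were set against the same 3 DMSO arrays.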

How the results depend on the processing

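Of 179 alternative counts of called members, 174 kept the count. The number of members called by replicate number was 2 in the imazalil set and 3 in the 2,4-D set with trended, robust eBayes, 1 in the 2,4-D set with dim probe sets left out, and 0 to 1 in the imazalil set on leaving out each replicate number (0 for numbers 2 and 3). Of 350 alternative values of tested differences and slopes, 31 changed direction, and the others did not. ANKRD1 by replicate number in the 2,4-D set passed only with trended, robust eBayes (F = 9.12, adjusted p = 0.040). ANKRD1 at 10 µM fenbuconazole was 0.0071 with joint quantile normalization, and its fenbuconazole slope 0.0020 with the spread covariate. On other probe sets LATS2 was 0.083 at 10 µM fenbuconazole (223379_PM_s_at), and −0.25 (223379_PM_s_at) and −0.14 (223380_PM_s_at) at 10 µM 2,4-D. Leaving out arrays gave, at 10 µM 2,4-D, −0.018 to 0.064 for CCN2, −0.15 to 0.075 for CCN1, −0.0069 to 0.099 for LATS2 and −0.22 to 0.067 for ANKRD1; at 10 µM fenbuconazole, −0.12 to 0.052 for ANKRD1 and −0.078 to 0.017 for LATS2; at 3 µM imazalil, −0.25 to 0.0064 for ANKRD1 and −0.078 to 0.065 for LATS2. The slopes over 0.001 to 3 µM ran from −0.033 to 0.011 for LATS2 with imazalil, from −0.0033 to 0.023 for CCN2 with 2,4-D, and with fenbuconazole from −0.014 to 0.016 for CCN2 and from −0.032 to 0.024 for ANKRD1. The cause was not tested.

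With the replicate number as a block (replicate block), the CCN2 slope over 0.001 to 3 µM imazalil stayed at −0.046 (adjusted p = 0.708) and no call of a member against DMSO, over doses or between compounds changed. Same-numbered arrays correlated at a mean of 0.035, 0.038 and 0.046 in their deviations from group means in the imazalil, fenbuconazole and 2,4-D sets. Of the same-numbered pairs, 23.7%, 37.0% and 22.2% were over 0.1. The means between numbers (−0.017, −0.019 and −0.023) follow from those of same-numbered arrays, because deviations from a group mean cancel within the group. The labels do not state what a number shares, so the fit without the block is the one reported. At 10 µM imazalil F3 was −0.18 without replicate 2. With 3 arrays per group, differences the size of those of CCN2 at 3 µM did not pass across 54613 probe sets.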
